A study of Mus musculus with 96 samples.

Results

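The hepatic gluconeogenesis genes described here are 5 genes, Pck1, G6pc, Slc37a4, Ppargc1a and Creb3l3, out of the 21990 genes of the deposited expression table, of which 20155 have values. They were chosen by name, as rows of the table that carry these symbols, and each was found once. Livers were taken from 48 male C57BL/6N mice, bought at 4 weeks of age, that were fed either a chow diet (CD, with 13.5% fat) or a high-fat diet (HFD, with 60% fat) for 4, 8, 12, 16, 20 or 24 weeks. There were 4 mice per diet and week, each giving 1 liver and 1 islet library, and different mice were used at every week, so that week, age and day of collection cannot be told apart. The labels name no engineered allele, and the feeding state at collection was not given in the sources used here. The liver samples came from the same region of the organ, and RNA from whole tissue was sequenced after poly(A) selection. Values are FPKM, fragments per kilobase of transcript scaled to the mapped fragments of each library.

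Gluconeogenesis makes glucose in the liver from lactate, glycerol and amino acids when no food arrives. Pck1 encodes the cytosolic phosphoenolpyruvate carboxykinase that turns oxaloacetate into phosphoenolpyruvate, a rate-controlling step of the path. G6pc encodes the catalytic subunit of glucose-6-phosphatase, which releases free glucose inside the endoplasmic reticulum, and Slc37a4 encodes the transporter that carries glucose-6-phosphate into that compartment. Ppargc1a encodes PGC-1 alpha, a coactivator that raises transcription of gluconeogenic and mitochondrial genes in fasting. Creb3l3 encodes CREBH, a liver transcription factor held in the membrane of the endoplasmic reticulum that is released by cleavage. Glucagon acts on this program through cyclic AMP, and insulin lowers it.

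The proximal promoters of the 2 members whose levels went together between mice, Pck1 and Ppargc1a, are shown with that of G6pc, the terminal enzyme. Cyclic AMP acts on such genes through CREB, whose short site reads TGACG. A part of this site in the levels going together was not tested. The sequences are from RefSeq (GRCm38.p6), cover the 250 bases before the annotated start and are written 5′ to 3′ on the strand of the gene. Capitals mark TATAAA in G6pc. In Pck1 and Ppargc1a they mark TGACG, which lies there on the other strand and therefore reads CGTCA. Pck1 lies at chr2:173152823-173153072 (plus strand), Ppargc1a at chr5:51567726-51567975 (minus strand) and G6pc at chr11:101367466-101367715 (plus strand). The Ppargc1a stretch, the 1 promoter found for that gene, lies inside its deposited span, chr5:51454249-52116058, which covers 13 transcripts. Starts farther upstream in that span are not shown.
Pck1: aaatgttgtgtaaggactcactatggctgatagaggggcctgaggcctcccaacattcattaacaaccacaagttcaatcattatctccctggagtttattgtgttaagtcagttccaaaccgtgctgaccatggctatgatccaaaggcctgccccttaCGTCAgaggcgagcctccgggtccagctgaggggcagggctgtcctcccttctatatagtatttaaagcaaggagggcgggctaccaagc
Ppargc1a: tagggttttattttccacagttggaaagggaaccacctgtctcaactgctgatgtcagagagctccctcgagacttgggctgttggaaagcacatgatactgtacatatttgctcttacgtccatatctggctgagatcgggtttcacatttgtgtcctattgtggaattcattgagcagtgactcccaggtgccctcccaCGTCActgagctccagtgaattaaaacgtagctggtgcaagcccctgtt
G6pc: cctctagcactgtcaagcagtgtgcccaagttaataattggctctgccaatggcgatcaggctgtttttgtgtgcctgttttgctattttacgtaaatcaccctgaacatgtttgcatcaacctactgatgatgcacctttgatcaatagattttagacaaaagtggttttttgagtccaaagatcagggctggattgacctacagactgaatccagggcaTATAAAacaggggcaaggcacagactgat

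Pck1 held TGACG on the opposite strand at bases -90 to -86 from the start, and Ppargc1a held it on the opposite strand at -49 to -45. G6pc held no TGACG and had TATAAA at -29 to -24. Only the exact letters named here were searched, so the absence of TGACG does not show that the G6pc promoter lacks a CREB site. The RefSeq table gave 3 promoters for Slc37a4, of which the first held TGACG at -61 to -57, the second held it at -214 to -210 and on the opposite strand at -82 to -78, and the third held TATAAA at -32 to -27. The first and second of these promoters overlap, and TGACG at -61 of the first and at -214 of the second is the same site. Of the 2 Creb3l3 promoters, the first held TGACG at -239 to -235, and the second held no motif searched. The full 8 letters TGACGTCA, in which TGACG lies, and GTAAACA, the core of a FOXO site, were searched on both strands and were in none of these promoters. Among all 32851 promoters of the table, which run from 250 bases before to 50 bases after the start, 20.8% held TGACG, 1.79% held TGACGTCA, 3.65% held GTAAACA and 13.6% held TATAAA, so the presence of TGACG or TATAAA is common and describes the letters only.

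The 5 genes lie on 5 chromosomes, and the spans below are those of whole genes, with exons, introns and UTRs, as the deposited table gives them on GRCm38. Pck1 (Entrez 18534) spans chr2:173153073-173159254 on the plus strand, G6pc (14377) chr11:101367716-101377903 on the plus strand and Slc37a4 (14385) chr9:44396857-44402968 on the plus strand. Ppargc1a (19017) spans chr5:51454249-52116058 and Creb3l3 (208677) chr10:81083916-81098872, both on the minus strand. In length-scaled level, Pck1 stood far above the other members, with a median of 852 FPKM over the 48 livers, rank 81 of the 20155 genes with values. Creb3l3 followed at 162 FPKM (rank 482), G6pc at 152 FPKM (rank 515) and Slc37a4 at 103 FPKM (rank 718). The ranges of Creb3l3 (107 to 204 FPKM), G6pc (39.5 to 359 FPKM) and Slc37a4 (55.7 to 248.8 FPKM) overlapped, so these 3 neighbours in the order were not separated. Ppargc1a was near the filter used for testing, with a median of 1.04 FPKM (0.47 to 2.19, rank 9876), below every other member in every liver. In the 48 islet libraries, Pck1 was at 0 to 1.49 FPKM, G6pc at 0 to 0.24 FPKM and Creb3l3 at 0.07 to 3.72 FPKM, whereas Slc37a4 was at 24.4 to 74.3 FPKM and Ppargc1a at 0.13 to 1.11 FPKM.

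The liver identity of the libraries was clear from hepatocyte markers, whose summed level over 9 genes, led by Alb, was 34797 to 78205 FPKM. The sum of all FPKM per liver library was 560016 to 672369, 9347 to 10570 genes reached 1 FPKM, and the mean correlation of a library with its own group was 0.975 to 0.989. The table used here holds FPKM and not read counts, so the number of reads behind a value is unknown. No 2 libraries held identical values. Because whole tissue was sequenced, fewer cells of a type and less RNA per cell cannot be told apart.

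Pck1 mRNA was lower in HFD than in CD livers. Over the 6 weeks its level was 1165 ± 368 FPKM in CD and 707 ± 225 FPKM in HFD livers (mean ± SD, n = 24 each), and the HFD mean was below the CD mean in 6 of 6 weeks, with a ratio of HFD to CD between 0.486 at week 12 and 0.788 at week 8. At week 4, the CD livers held 1019, 1055, 1184 and 1216 FPKM, and the HFD livers 655, 698, 727 and 818 FPKM. All 4 HFD livers were thus below all 4 CD livers at the earliest point measured. At week 24 the groups also stood apart, with 774, 774, 961 and 1216 FPKM in CD and 499.5, 535, 619.9 and 684.5 FPKM in HFD livers. In the weeks between, the groups overlapped.

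At week 8 the HFD livers split into a pair at 329.7 and 383 FPKM and a pair at 1107 and 1273 FPKM, whereas the CD livers held 597, 919.5, 1036 and 1373 FPKM. The low HFD pair lay below every CD liver of the week and the high pair inside the CD range, which gave the HFD livers their widest spread of any week. At week 12 the CD livers held 766, 1156, 1698 and 1939 FPKM, and the HFD livers held 508, 619.8, 714 and 862 FPKM. Here 3 of 4 HFD livers were below all CD livers. At week 16 the CD livers held 843, 1129.9, 1206 and 1545 FPKM and the HFD livers 601, 613, 617 and 1039.8 FPKM, and at week 20 they held 1013, 1104, 1291 and 2138 FPKM and 609, 654, 743 and 1054 FPKM. In both weeks 3 HFD livers lay below all CD livers and 1 HFD liver lay inside the CD range.

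**Figure D1:**
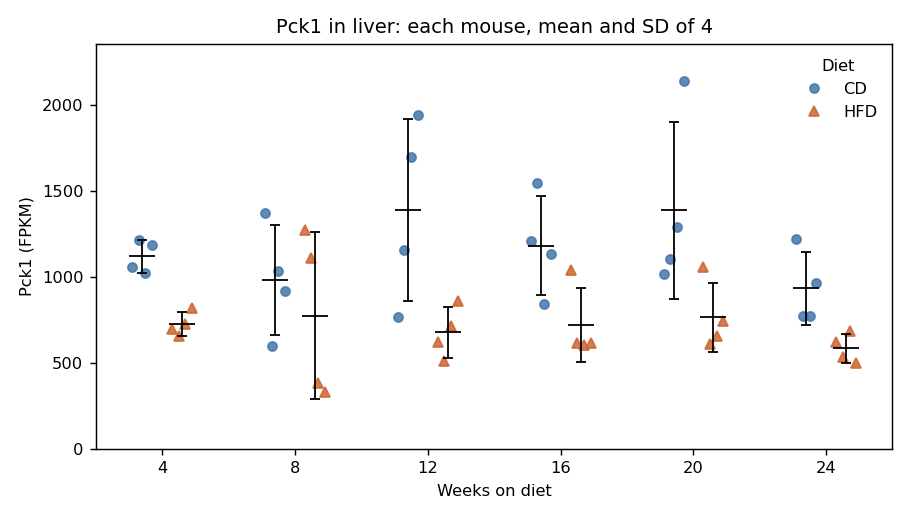
Pck1 level in FPKM (vertical axis, from 0) in each liver against weeks on diet (horizontal axis), for CD (circles) and HFD (triangles), with 4 mice per diet and week, the mean as a horizontal bar and the SD as whiskers. The HFD mean is below the CD mean in 6 of 6 weeks, the groups do not overlap at weeks 4 and 24, and the HFD livers of week 8 fall into a low and a high pair.

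Within each week, the members that passed the filter on low values were tested by limma on log2(FPKM + 1), all 5 at weeks 8, 12 and 16 and all but Ppargc1a at weeks 4, 20 and 24, with p-values adjusted by the Benjamini-Hochberg method over all genes tested, and a gene was called at an adjusted p under 0.05. None of the members tested was called in any week. By this rule the share of all genes tested that was called was 0.0506% in week 4 and 7.49% in week 8. It was 10.6% for week 12, 7.43% for week 16, 2.47% for week 20 and 0.837% for week 24. For Pck1 the log2 difference, HFD minus CD, was -0.63 at week 4 (limma adjusted p = 0.0779), -0.53 in week 8 (adjusted p = 0.569) and -0.98 in week 12 (adjusted p = 0.0632). The later values were -0.73 for week 16 (limma adjusted p = 0.0857), -0.83 for week 20 (adjusted p = 0.125) and -0.66 for week 24 (adjusted p = 0.119). Pck1 was called in week 12 without mouse CD304 (limma adjusted p = 0.00853) or with all 12 groups in 1 fit (limma adjusted p = 0.0312), and in week 16 without mouse HFD411 (limma adjusted p = 0.0111). The unadjusted p was under 0.05 in 5 of these 6 weeks, all but week 8, and 1271 to 3021 genes per week reached that level. An exact two-sided permutation test of 4 against 4, which cannot give a p below 0.0286, gave that smallest value for weeks 4 and 24, 0.0571 at weeks 12, 16 and 20, and 0.3429 at week 8.

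Taken over the 6 weeks, with all 48 livers in 1 limma fit of 12 groups, Pck1 was called lower in HFD, with a mean log2 difference of -0.72 (SE 0.13, 95% interval -0.98 to -0.46, limma adjusted p = 1.85e-05). By the same rule 42.6% of the 10879 genes tested were called, 3892 higher (35.8%) and 738 lower (6.78%) in HFD, so a call alone does not set Pck1 apart, and its p ranked 927 of 10879. Scaling the libraries by the median ratio turned this split into 2333 higher and 1835 lower, and Pck1 was then at -0.81 (limma adjusted p = 7.41e-06). Its adjusted p over the other settings tried was 1.55e-06 to 2.98e-04, and with each of the 48 livers left out in turn it was 2.56e-06 to 4.13e-05. A permutation test, with mice exchanged between diets within weeks, gave p = 1e-05, the smallest that 100000 resamples can give. A dependence of the difference on week did not pass the test (F = 0.26, limma adjusted p = 0.975 for diet by week), where 1.46% of genes were called. The mean difference was -0.71 over weeks 4, 8 and 12 and -0.74 over weeks 16, 20 and 24, and the difference between these spans had an interval of -0.49 to 0.54 (limma adjusted p = 0.991), where 0.175% of genes were called.

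Markers of liver zones and of other cells moved with the same contrast, by which 35.8% of all genes tested were called higher and 6.78% lower. Pck1 is known as a gene of periportal hepatocytes, those near the incoming blood, and 5 of 6 periportal markers were also called lower over the 6 weeks, namely Hal (-0.50 on the log2 scale), Sds (-0.38), Gls2 (-0.34), Cyp2f2 (-0.32) and Ass1 (-0.27), whereas Hsd17b13, a lipid droplet enzyme, was higher by 0.38. The median of this list was -0.33, against 0.08 over all genes tested, and its summed level was 1435 to 6285 FPKM in CD and 1827 to 4809 FPKM in HFD livers. By week, 4 of these 6 were called lower at week 8 and 3 at week 20, and 1 was called higher at week 16. None was called at weeks 4, 12 and 24. Of all genes tested, 7.49% were called at week 8, 2.47% at week 20 and 7.43% at week 16. Within this list, the difference depended on week for Cyp2f2 (limma adjusted p = 0.00536 for diet by week) and Hal (adjusted p = 0.0225), where 1.46% of genes were called. Of 6 pericentral markers 1 was higher, the glutamine synthetase gene Glul (0.30), and 2 were lower, Cyp1a2 (-0.92) and Oat (-0.51), with sums of 4105 to 10393 FPKM in CD and 3712 to 8529 FPKM in HFD livers. The difference for Oat depended on week (limma adjusted p = 0.0118 for diet by week), with a mean of -0.01 over weeks 4, 8 and 12 and -1.02 over weeks 16, 20 and 24. None of 9 hepatocyte markers was higher and 4 were lower (Tat, Fgb, Cps1 and Ass1). All 6 stellate cell and fibroblast markers were higher, with sums of 28.6 to 94.6 FPKM in CD and 52.9 to 165.7 FPKM in HFD livers, as were 5 of 7 Kupffer cell and macrophage markers, with sums of 36.9 to 135.8 and 46.0 to 185.9 FPKM. The difference also depended on week for Cps1 (limma adjusted p = 0.0177 for diet by week) and the Kupffer cell marker Vsig4 (adjusted p = 0.0341). Of 3 cholangiocyte markers tested 1 was higher, near the share of all genes. None of the 5 endothelial, 5 erythroid, 6 pancreatic acinar and 1 lymphocyte markers tested was called. Summed levels in all livers were 13.6 to 222.3 FPKM for the 5 cholangiocyte genes, 20.6 to 69.2 for the 5 endothelial genes, 65.6 to 4771 for the erythroid genes, 0.05 to 91.3 for the acinar genes and 0.14 to 3.25 for the 5 lymphocyte genes. No marker was at 0 in every liver. Under median ratio scaling Lrat, Vsig4 and Spp1 lost their calls, and Hnf4a and Serpina1a joined the lower hepatocyte markers. With that scaling 2333 of all 10879 genes tested were called higher and 1835 lower. Tat, Sds, Ass1 and Hnf4a each stand in more than 1 list. The part of zonation, cell makeup or blood and pancreatic RNA in the Pck1 result was not tested.

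G6pc showed no diet difference that passed the test. Its level was 171 ± 65.7 FPKM in CD and 158 ± 80.2 FPKM in HFD livers (mean ± SD, n = 24 each), and the HFD mean was lower in 5 of 6 weeks. At week 4 the CD livers held 93.1, 119.9, 165.2 and 191.2 FPKM and the HFD livers 82.0, 101.45, 108.5 and 237.2 FPKM. At week 8, when its mean was highest in both diets, the CD livers held 178.0, 237.2, 267.4 and 358.8 FPKM and the HFD livers 149.2, 154.7, 318.7 and 319.2 FPKM. The same 2 HFD mice that were low in Pck1 at this week were the low pair in G6pc. Week 12 was the single week with a higher HFD mean, with 127.1, 162.4, 176.1 and 181.0 FPKM in CD and 104.6, 216.0, 234.7 and 258.65 FPKM in HFD livers. Here 3 HFD livers lay above all CD livers and 1 lay below all of them.

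At week 16 the G6pc values were 79.0, 133.3, 205.5 and 211.2 FPKM in CD and 85.8, 130.4, 158.6 and 253.6 FPKM in HFD livers, and the means, 157.2 and 157.1 FPKM, were nearly equal. At week 20 they were 111.4, 145.1, 155.7 and 284.6 FPKM in CD and 39.5, 93.6, 111.9 and 231.9 FPKM in HFD livers, and at week 24 they were 91.0, 128.5, 141.9 and 164.7 FPKM and 66.7, 93.8, 114.2 and 129.4 FPKM. The groups overlapped in every week. The weekly log2 differences ran from -0.72 at week 20 to 0.26 at week 12, with limma adjusted p of 0.462 to 0.995, and at week 12 the gene was called higher without mouse HFD316 (limma adjusted p = 0.0378). Over the 6 weeks the mean difference was -0.20 (SE 0.17, 95% interval -0.54 to 0.13, limma adjusted p = 0.333), so a decrease by 0.54 or an increase by 0.13 on the log2 scale lies within its error. Its early minus late difference was 0.33 (interval -0.34 to 1.00, limma adjusted p = 0.855). The ratio of Pck1 to G6pc in a liver had a median of 6.67 in CD (2.52 to 14.3) and 4.62 in HFD livers (2.21 to 15.4).

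Slc37a4, the partner of G6pc in glucose release, changed over the weeks in CD mice but was not called for diet. In CD livers it fell from a mean of 186 ± 69.8 FPKM at week 4 to 76.5 ± 24.8 FPKM at week 24 (SD, n = 4 each), and the change over weeks passed the test (F = 5.74, limma adjusted p = 0.00228), as it did for 55% of genes. The other 4 members were not called for this change (limma adjusted p of 0.107 to 0.536), although Creb3l3 was when 1 CD mouse of week 20, CD507, was left out. The CD means of Slc37a4 at weeks 8, 12, 16 and 20 were 109.0, 119.6, 92.9 and 109.0 FPKM, so the fall was not steady. In HFD livers its mean was 135 ± 14.9 FPKM at week 4 and 88.4 ± 18.0 FPKM at week 24 (SD, n = 4 each). Change over weeks in HFD livers was not tested. At week 4 the CD livers held 105.2, 151.1, 240.2 and 248.8 FPKM and the HFD livers 114.55, 137.6, 137.7 and 150.2 FPKM. The HFD livers of that week lay inside the CD range, and the same was seen at week 8, with 69.3 to 141.9 FPKM in CD and 77.05 to 138.1 FPKM in HFD livers. At week 20 the CD livers held 90.6, 102.05, 120.5 and 122.9 FPKM and the HFD livers 65.9, 69.8, 85.7 and 97.3 FPKM. This was the week of the largest difference for the gene, -0.45 on the log2 scale, with 3 HFD livers below all CD livers (limma adjusted p = 0.158, exact permutation p = 0.0571). At weeks 12, 16 and 24 the ranges were 80.5 to 149.5, 80.6 to 120.8 and 55.7 to 109.55 FPKM in CD and 75.1 to 139.5, 64.7 to 104.1 and 76.0 to 115.1 FPKM in HFD livers. Over the 6 weeks the mean difference was -0.14 (SE 0.10, 95% interval -0.35 to 0.06, limma adjusted p = 0.248).

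Ppargc1a passed the filter on low values at weeks 8, 12 and 16 and was not tested by limma in the other 3 weeks. At week 8 the CD livers held 0.75, 0.85, 1.01 and 1.11 FPKM and the HFD livers 1.12, 1.23, 1.29 and 1.55 FPKM. The groups did not overlap, with HFD higher by 0.25 on the log2(FPKM + 1) scale, but the highest CD and the lowest HFD liver differed by 1 unit of the second decimal at which values were deposited, and the test was not passed (limma adjusted p = 0.141, exact permutation p = 0.0286). In the other weeks the groups overlapped. At week 4 the values were 0.49, 0.55, 0.89 and 1.53 FPKM in CD and 0.62, 0.79, 1.02 and 1.22 FPKM in HFD livers, and at week 20 they were 0.63, 0.84, 0.94 and 2.19 FPKM and 0.47, 0.87, 1.06 and 1.51 FPKM. The ranges at weeks 12, 16 and 24 were 0.72 to 1.44, 0.94 to 1.47 and 0.77 to 1.06 FPKM in CD and 0.96 to 1.34, 1.16 to 1.78 and 0.63 to 1.40 FPKM in HFD livers. Over the 6 weeks the mean difference was 0.08 (SE 0.07, 95% interval -0.05 to 0.22, limma adjusted p = 0.312), and the HFD mean was higher in 5 of 6 weeks. Folds of such low values are understated on this scale.

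Creb3l3 varied little between mice, and its mean over the 6 weeks was slightly higher in HFD livers, at 168 ± 19.2 FPKM against 154 ± 22.3 FPKM in CD (mean ± SD, n = 24 each). At week 8 the CD livers held 126.9, 132.0, 151.9 and 166.3 FPKM and the HFD livers 150.0, 169.0, 178.0 and 191.1 FPKM, with 3 HFD livers above all CD livers. At week 20 the CD livers held 107.3, 114.3, 165.3 and 177.3 FPKM and the HFD livers 157.1, 167.0, 180.7 and 182.1 FPKM, so that the CD livers formed a low and a high pair. The groups overlapped in every week, and at week 4 the ranges were 129.25 to 171.3 FPKM in CD and 167.0 to 195.45 FPKM in HFD livers. At weeks 12, 16 and 24 they were 158.0 to 192.3, 120.1 to 155.2 and 154.4 to 189.7 FPKM in CD and 150.6 to 186.8, 131.5 to 156.1 and 148.2 to 204.5 FPKM in HFD livers. The mean log2 difference was 0.13 (SE 0.05, 95% interval 0.03 to 0.23, limma adjusted p = 0.0359), which passed the threshold, beside the 42.6% of genes called and a median of 0.08 over all genes tested. After scaling of the libraries by the median ratio it was 0.04 (limma adjusted p = 0.559), and the call was also lost without week 4, 8 or 20 and without any of 13 of the 48 mice (limma adjusted p of 0.0118 to 0.0628 over the 48 fits).

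**Figure D2:**
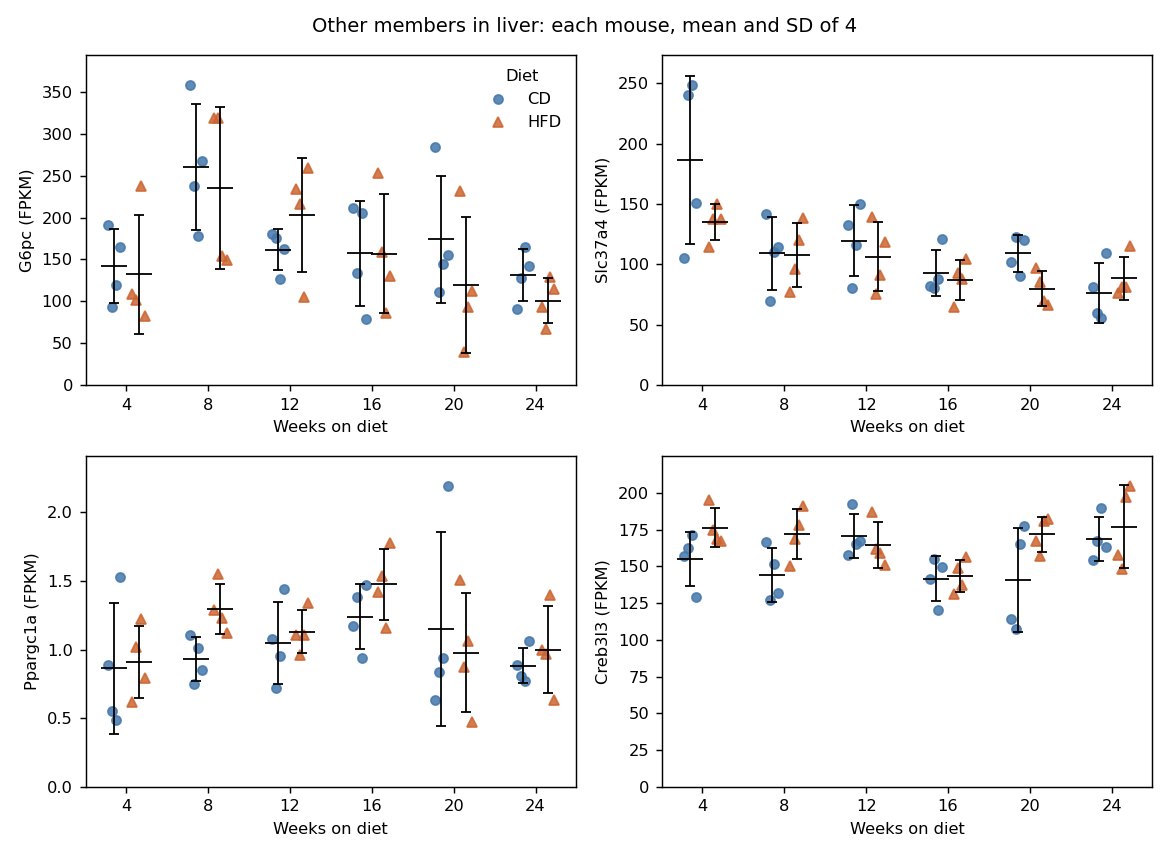
Levels of G6pc, Slc37a4, Ppargc1a and Creb3l3 in FPKM (vertical axes, each from 0) in each liver against weeks on diet, for CD (circles) and HFD (triangles), with 4 mice per diet and week, the mean as a bar and the SD as whiskers. The diets overlap in nearly every week, Ppargc1a at week 8 being the exception, and Slc37a4 is highest in CD livers at week 4.

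**Figure D3:**
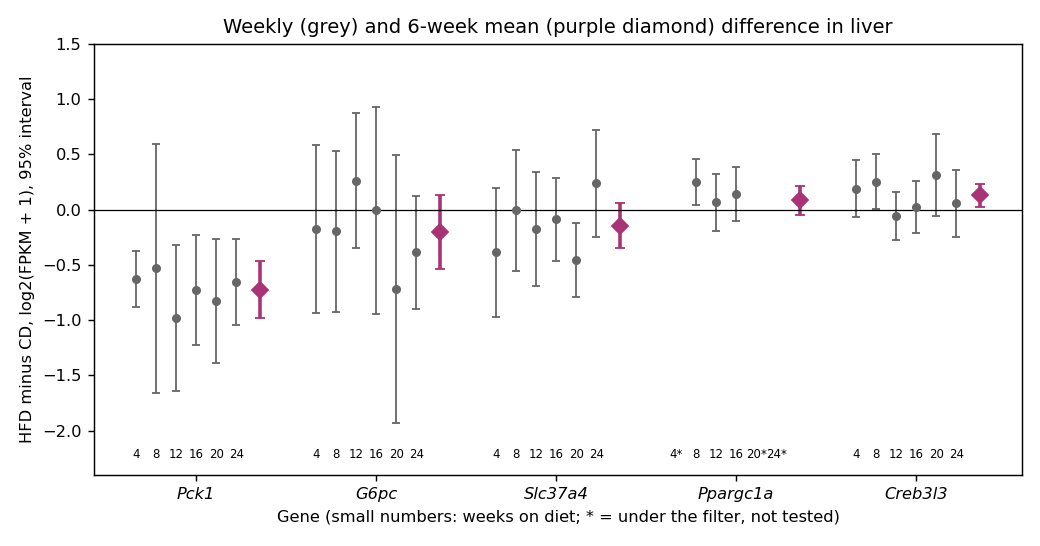
Difference between diets (HFD minus CD, log2(FPKM + 1)) with its 95% interval for each member, week by week (grey circles) and as the mean of the 6 weeks (purple diamonds), from limma. The mean for Pck1, -0.72, lies clear of 0, that for Creb3l3, 0.13, lies just above 0, and those of the other 3 members have intervals that include 0.

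Between mice of the same diet and week, 1 of the 10 pairs of members passed the permutation test for varying together. With each group's mean taken away, Pck1 and Ppargc1a were correlated over the 48 livers with Pearson's r = 0.468 (permutation p = 0.0002, adjusted over 10 pairs 0.002) and Spearman's rho = 0.529 (permutation p = 0.00032, adjusted 0.0032). Without the 2 mice farthest from the median of Pck1, both HFD mice of week 8, r was 0.509. With group means kept, r over the 48 livers was 0.20. Within CD livers alone r was 0.582 (n = 24, permutation p = 0.0035, rho = 0.635, permutation p = 0.0029), and within HFD livers alone it was 0.361 (n = 24, permutation p = 0.0344, rho = 0.460, permutation p = 0.0288). Pck1 and G6pc gave r = 0.282 (permutation p = 0.0847, adjusted 0.423, rho = 0.230), G6pc and Slc37a4 gave r = -0.197 (permutation p = 0.186, adjusted 0.549, rho = -0.201), and the other 7 pairs had r between -0.03 and 0.20, none passing (adjusted permutation p of at least 0.549). The r of Pck1 with Ppargc1a was not its largest among the listed genes, and by the same measure it was 0.67 with Lpin2 and -0.68 with Foxa2. All values of a mouse come from 1 library, so that RNA quality or library composition is shared between the genes of a pair.

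**Figure D4:**
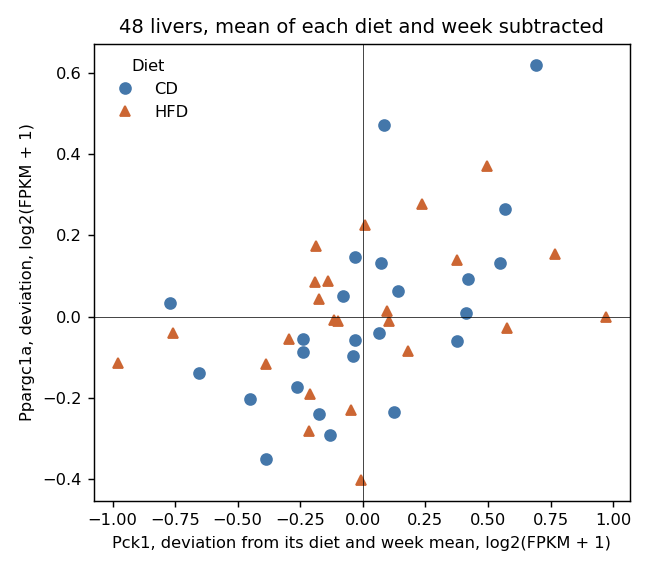
Deviation of Ppargc1a (vertical axis) against that of Pck1 (horizontal axis) from the mean of their diet and week, both in log2(FPKM + 1), for 24 CD (circles) and 24 HFD (triangles) livers. Livers high in Pck1 for their group tended to be high in Ppargc1a, with r = 0.468 over the 48 livers.

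Over the 48 livers, without subtracting group means, the 3 genes whose level followed each member most closely were listed as a description. They came from 10874 genes, the member included, with at least 1 FPKM in at least 4 livers and a symbol found once. For Pck1 the closest genes were Rapgef4 (r = 0.66), which encodes a cyclic AMP-binding exchange factor, Slc38a2 (0.66), an amino acid transporter, and Per1 (0.65), a clock gene. For G6pc they were Timd2 (0.63), Slc25a25 (0.61), a mitochondrial carrier of ATP-Mg and phosphate, and Mblac2 (0.60). For Slc37a4 they were Asl (0.89), the argininosuccinate lyase of the urea cycle, Etnk2 (0.87), an ethanolamine kinase, and 2310061I04Rik (0.87). For Ppargc1a they were Slc25a32 (0.77), a mitochondrial folate carrier, Pank3 (0.76), a pantothenate kinase of coenzyme A synthesis, and Tmem106b (0.74). For Creb3l3 they were 5031439G07Rik (0.77), Josd1 (0.75), a deubiquitinase, and Slc6a9 (0.74), a glycine transporter. No member was among the 3 closest genes of another.

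Of 14 other enzyme genes listed between pyruvate and glucose, 9 were called higher and 1 lower over the 6 weeks. Of all genes tested, 35.8% were called higher and 6.78% lower. The median of the list was 0.19 on the log2 scale against 0.08 over all genes tested. Pcx, the pyruvate carboxylase that makes the oxaloacetate used by Pck1, rose from 133 ± 25.6 FPKM in CD to 180 ± 38.4 FPKM in HFD livers (mean ± SD, n = 24 each), a log2 difference of 0.43 (limma adjusted p = 6.26e-07). Mdh2 (0.25) and Got2 (0.26), the mitochondrial malate dehydrogenase and aspartate aminotransferase, were higher, whereas Got1, the cytosolic aspartate aminotransferase, was lower by the same contrast (-0.46, limma adjusted p = 0.00106), at 110.0 ± 49.2 FPKM in CD and 80.2 ± 37.5 FPKM in HFD livers. The reversible enzymes shared with glycolysis were higher for Pgam1 (0.37), Eno1 (0.28), Gapdh (0.24), Tpi1 (0.21) and Pgk1 (0.17), as was G6pc3 (0.16), the broadly expressed glucose-6-phosphatase, at 4.68 FPKM in CD and 5.35 FPKM in HFD livers. Mdh1 (0.05), Gpi1 (0.12) and Fbp1 (0.03), the fructose-1,6-bisphosphatase specific to gluconeogenesis, were not called, nor was Pck2 (0.08), the mitochondrial counterpart of Pck1, which was at 0.82 FPKM in CD and 0.92 FPKM in HFD livers. Under median ratio scaling the list had 6 higher and 1 lower, with Pgk1, Gapdh and G6pc3 no longer called. With that scaling 2333 of all 10879 genes tested were called higher and 1835 lower. Gapdh, Eno1, Pgam1, Tpi1, Pgk1 and Ldha have pseudogene copies, among which reads could be split. By week, 4 of 13 tested enzymes were called at week 8, 7 at week 12 and 4 at week 16, each higher, with none at weeks 4 and 24 and 1 lower at week 20. Of all genes tested, 7.49% were called at week 8, 10.6% at week 12 and 7.43% at week 16. The shares at weeks 4, 20 and 24 were 0.0506%, 2.47% and 0.837%, so few genes of any kind were called in those weeks.

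Among 12 genes of substrate entry, 4 were called higher and 2 lower, with a median of 0.13, where 35.8% of all genes tested were called higher and 6.78% lower, so the share called higher was near that of all genes. Mpc1, a subunit of the mitochondrial pyruvate carrier, was at 177 ± 38.7 FPKM in CD and 258 ± 72.9 FPKM in HFD livers (log2 difference 0.52, limma adjusted p = 6.59e-09), and Gk, the glycerol kinase (0.37), Gpt2, an alanine aminotransferase (0.22), and Ldhb, a lactate dehydrogenase subunit (0.19), were also higher. The 2 lower genes both break down amino acids. Tat, the tyrosine aminotransferase, was at 508 ± 177 FPKM in CD and 357 ± 139.6 FPKM in HFD livers (-0.54, limma adjusted p = 0.00356), and Sds, the serine dehydratase, was at 209 ± 77.6 FPKM and 167 ± 91.5 FPKM (-0.38, limma adjusted p = 0.00833). Ldha (0.18), Gpt (0.05), Gpd1 (0.18), Aqp9 (0.09), Slc16a1 (0.06) and Mpc2 (-0.03) were not called. Under median ratio scaling 3 genes of this list were higher and 3 lower, since Gpt2 lost and Mpc2 gained a call. Of all 10879 genes tested, that scaling left 2333 called higher and 1835 lower, against 3892 and 738 before it.

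Of 10 genes of glucose uptake, glycolysis and glycogen handling, 4 were called higher and none lower, with a median of 0.20, a share near the 35.8% of all genes tested that were called higher. The list holds enzymes and regulators that act in opposite directions. Pfkfb1, the enzyme that sets fructose-2,6-bisphosphate, was at 13.4 ± 3.93 FPKM in CD and 18.2 ± 4.09 FPKM in HFD livers (mean ± SD, n = 24 each), a log2 difference of 0.44 (SE 0.08, limma adjusted p = 3.59e-05). Pklr, the liver pyruvate kinase (0.48), Pfkl, the liver phosphofructokinase (0.38), and Gckr (0.17) were higher as well. Slc2a2, the glucose transporter (0.18), Gys2, the liver glycogen synthase (0.23), Pygl, the liver glycogen phosphorylase (0.11), and the glycogen-targeting subunits Ppp1r3b (0.18), Ppp1r3c (-0.33) and Ppp1r3g (0.34) were not called. The call of Gckr was lost under median ratio scaling.

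**Figure D5:**
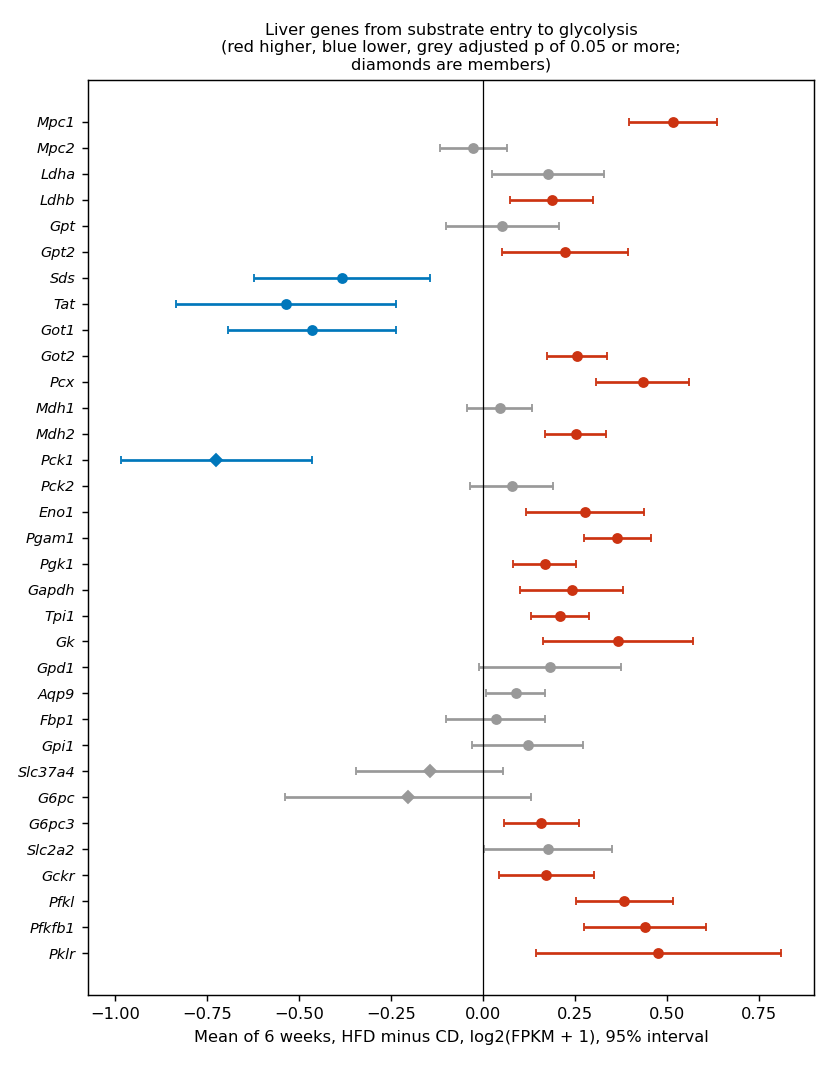
Mean difference over the 6 weeks between diets (HFD minus CD, log2(FPKM + 1), horizontal axis) with its 95% interval from limma, for genes ordered from substrate entry through gluconeogenesis to glucose release and glycolysis. Pck1, Tat, Got1 and Sds lie below 0 (blue), Mpc1, Pklr, Pfkfb1 and Pcx are the highest (red), and G6pc, Slc37a4 and Fbp1 are among the genes not called (grey).

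Of 22 hormone receptors and regulators of the program, 2 were called higher and 3 lower, with a median of 0.04, beside 35.8% of all genes tested called higher and 6.78% lower. Gcgr, the glucagon receptor (-0.15), Crtc2, the coactivator of CREB (-0.15), and Klf15, a regulator of amino acid catabolism (-0.19), were lower, and Ppara, the fatty acid receptor (0.35), and Nr3c1, the glucocorticoid receptor (0.14), were higher. Insr (0.01), Irs1 (-0.08), Irs2 (0.13), Foxo1 (0.10), Creb1 (0.04), Sirt1 (-0.10) and Hnf4a (-0.15), which partners with PGC-1 alpha on gluconeogenic promoters, were not called. Nr3c1 lost its call and Hnf4a and Sirt1 were called lower under median ratio scaling, by which 2333 of all 10879 genes tested were called higher and 1835 lower. Of 8 other fasting-induced genes, 3 were called higher and none lower, near the 35.8% of all genes called higher. These were Pdk4, a kinase that blocks pyruvate oxidation (1.43), Cyp4a14, a fatty acid hydroxylase (1.19), and Cpt1a, which admits fatty acids to mitochondria (0.32), whereas Igfbp1 (0.49), Angptl4 (0.12), Lpin1 (0.05), Lpin2 (0.19) and Acot1 (0.37) were not called. The difference for Cyp4a14 depended on week (limma adjusted p = 0.00845 for diet by week), with a mean of 2.55 over weeks 4, 8 and 12 and -0.17 over weeks 16, 20 and 24. In FPKM its mean over all weeks was 543 ± 631 in CD and 539 ± 311 in HFD livers (SD, n = 24 each), a ratio of 0.993.

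Of 7 known targets of CREBH, the product of Creb3l3, 4 were called higher and 1 lower, with a median of 0.69. Of all genes tested, 35.8% were called higher and 6.78% lower. Cidec, a lipid droplet protein, was at 1.74 ± 2.24 FPKM in CD and 30.5 ± 20.6 FPKM in HFD livers (mean ± SD, n = 24 each), a log2 difference of 3.10 (limma adjusted p = 2.1e-13) that depended on week (limma adjusted p = 0.00696 for diet by week). Apoa4, an apolipoprotein (1.61), Fgf21, a fasting hormone (1.58), and Apoc2, the cofactor of lipoprotein lipase (0.69), were higher, and Hamp, the iron hormone hepcidin (-1.77), was lower. Apoa5 (-0.20) and Apcs (0.05) were not called, and Apoa5 was called lower under median ratio scaling. With each group's mean taken away, Creb3l3 and the mean of the 7 targets had Pearson's r = 0.18 over the 48 livers. For single targets r with Creb3l3 ran from -0.08 (Hamp) to 0.44 (Apoa5). The part of CREBH in the differences of these genes was not tested.

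Clock genes follow the hour of day and immediate early genes respond to handling, and both are given beside the members. Their counts stand beside 35.8% of all genes tested called higher and 6.78% called lower over the 6 weeks. Of 12 clock genes tested of 13 listed, Per2 was called higher (0.41) and none was called lower, while Per1, among the genes closest to Pck1, was at -0.34 (limma adjusted p = 0.0757) and was called lower under median ratio scaling. With each group's mean taken away, Slc37a4 was the member that followed clock genes most closely over the 48 livers, with Pearson's r of 0.82 for Tef, 0.79 for Ciart and 0.77 for Per3, and of -0.81 for Clock and -0.74 for Arntl. For the other 4 members r with the 12 clock genes lay between -0.50 and 0.58, the highest being that of Pck1 with Per1. These values share libraries and are given as a description. The change over weeks in CD livers passed the test for Clock (limma adjusted p = 0.0278), as for Slc37a4, and did not for Tef, Ciart, Per3 and Arntl (limma adjusted p of 0.0971 to 0.489). The summed level of the clock genes was 59.5 to 355.6 FPKM in CD and 95.3 to 328.0 FPKM in HFD livers. Of 8 immediate early genes 2 were higher, Jun (1.36) and Atf3 (1.22), with sums of 35.9 to 370.6 FPKM in CD and 39.8 to 659.2 FPKM in HFD livers. The part of the hour of collection or of handling in the results for the members was not tested.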

How the data were processed

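FPKM values of 48 liver and 48 islet libraries were deposited by the authors in a table of all genes, rounded to 2 decimals. Per the labels, poly(A) RNA was reverse transcribed with random hexamers and sequenced on a BGISEQ-500 instrument, and the submitters' processing notes name HISAT2 2.0.4, Bowtie2 2.2.5, RSEM 1.1.12, DESeq2 and the build GRCm38.p5. Columns of group means, network modules and the authors' own comparisons by DEGseq (log2 ratios, p-values and q-values) were not used, and DESeq2 was not used here. Values of 1835 genes were missing. Since FPKM hold no read counts, counting error could not be computed.

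Libraries were grouped by tissue, diet and weeks on diet from the labels. FPKM were transformed to log2(FPKM + 1) and tested with limma 3.58.1 (R 4.3.3, mean-variance trend, robust), with Benjamini-Hochberg adjustment over all genes tested. Within weeks, genes with at least 1 FPKM in 4 of 8 libraries were tested (3 of 7 with 1 left out). In the fit of all 48 livers, at least 4 had to reach 1 FPKM, and contrasts were the mean of 6 weekly differences, diet by week, early (4, 8, 12) minus late (16, 20, 24) weeks, and change over weeks in CD. Exact permutation tests and correlations with 100000 permutations within groups used Python 3.11.15 and numpy 2.4.6. The limma steps were tested on simulated data. Alternatives were a pseudocount of 0.1, no filter, median ratio scaling and leaving out mice. For single weeks they were also all 12 groups in 1 fit, an added absolute log2 difference of at least 1 and exact permutation. For the mean of 6 weeks, weeks were also left out. Permutation within weeks for the mean difference was added after seeing the data.

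The members, gene lists and marker lists were chosen with earlier results of these data known. Genes named are the members, the genes of these lists and, for each member, the 3 genes most correlated with it. Some genes of these pathways are not reported here, and list counts and medians leave them out. Promoters and motif counts used RefSeq sequences (GRCm38.p6), in which all 5 members matched by gene identifier.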

Additional observations from a re-analysis of the deposited data

Results flagged for a closer look

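In 3 of the 60 groups of 4 livers (5 members, 12 groups of diet and week), 1 liver stood apart from the other three by Dixon's test, and chance flags about 1 in 20 groups. For G6pc at week 4 on HFD, mouse HFD114 held 237.22 FPKM and the others 82.01 to 108.52 FPKM. For Pck1 at week 16 on HFD, mouse HFD411 held 1039.81 FPKM and the others 601.34 to 616.76 FPKM, and without this mouse Pck1 was called lower in that week (limma adjusted p = 0.0111). For Slc37a4 at week 24 on HFD, mouse HFD617 held 115.13 FPKM and the others 76.01 to 81.56 FPKM.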

How the results depend on the processing

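No paired analysis was possible because the CD and HFD groups share no mouse and no replicate number, and islet and liver were not compared by a test. In the mean over 6 weeks, Pck1 was called in every alternative run for that mean and in 48 of 48 fits without 1 mouse. The added rule of an absolute log2 difference of at least 1 was applied to single weeks only, and the mean difference of Pck1 was -0.72. The number of members called fell from 2 to 1 under median ratio scaling and without week 4, 8 or 20, Creb3l3 being the one lost, and was 1 to 2 with each mouse left out, the 13 mice whose absence removed the call being CD106, CD205, CD208, CD405, CD501, CD502, CD601, HFD112, HFD217, HFD313, HFD418, HFD616 and HFD617. Of the 10879 genes tested for that mean, 42.6% were called in the main fit and 4168 genes under median ratio scaling, so 2 of 5 is near the share of all genes. Of the weekly counts of members called, 0 in each week, that at weeks 4, 8 and 24 became 1 by the exact permutation test without adjustment (Pck1, Ppargc1a and Pck1), and that at week 12 became 1 with all 12 groups in 1 fit (Pck1, limma adjusted p = 0.0312, against 0.0627 to 0.0849 under the other limma settings with all mice). With each mouse left out the count was 0 to 1 at week 12 (Pck1 without CD304, adjusted p = 0.00853, and G6pc without HFD316, adjusted p = 0.0378) and 0 to 1 at week 16 (Pck1 without HFD411). For change over weeks in CD the count was 1 to 2, with Creb3l3 added without CD507. The causes were not tested.

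Directions that turned belonged to differences that had not passed a test. Under median ratio scaling Creb3l3 was at -0.077 at week 16 and -0.0234 at week 24. With 1 mouse left out, the log2 difference ran from -0.50 to 0.0075 for G6pc at week 4, -0.21 to 0.14 for Slc37a4 at week 8, -0.0144 to 0.15 for Ppargc1a and -0.12 to 0.0031 for Creb3l3 at week 12, -0.30 to 0.25 for G6pc, -0.18 to 0.047 for Slc37a4 and -0.0529 to 0.0695 for Creb3l3 at week 16, and -0.0148 to 0.14 for Creb3l3 at week 24. Median ratio scaling moved the median of all genes in the 6-week mean from 0.08 to 0.004. Calls for the list of all genes at a week also varied with single mice, between 201 and 2105 genes at week 12. Correlations gave the same pair under the other pseudocount and under scaling. The depth behind Ppargc1a, near 1 FPKM, is unknown, since the values used are not read counts.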
